A study of Mus musculus with 18 samples.

Results

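The genes described here are 33 mouse genes of the integrated stress response, the set of ATF4 and of genes that ATF4 switches on when amino acids run short. They are a list of gene names, drawn up with earlier results of these data known, and all 33 were found among the 47937 gene IDs of the deposited count table. Their levels are given in 18 RNA libraries of mouse embryonic fibroblasts (MEFs), in 6 groups of 3. Doxycycline switches on a dCas9 in these cells, a form of Cas9 that binds DNA without cutting it, which the CRISPR system directs to the major satellite repeats (MSR) of pericentromeric heterochromatin. The control line carried dCas9-control, the repressor line dCas9-KM, described as a transcriptional repressor, and the activator line dCas9-VPR, described as a transcriptional activator. Each line was sequenced untreated and after doxycycline. The control line received 10 ng/ml for 24 h, the repressor line 100 ng/ml for 24 h and the activator line 10 ng/ml for 6 h. Dose and time therefore differ between the induced groups, and an effect of the effector cannot be told apart from them. All groups grew in high-glucose medium with glutamine, non-essential amino acids, mercaptoethanol, tetracycline-free serum and hygromycin. Whether a line is 1 clone, and whether the libraries of a group came from separate cultures, is not given in the sources used here. The p-values rest on the variation among libraries of a group, which could be technical only.

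In the integrated stress response, several kinases phosphorylate the translation factor eIF2, general protein synthesis drops, and the mRNA of Atf4 is translated more efficiently. ATF4 pairs with C/EBP proteins at a composite DNA element and raises genes for making amino acids, importing them and loading them onto tRNA, together with factors such as CHOP (Ddit3) and TRIB3 that limit or end the response. In cultured fibroblasts many of these genes are expressed without added stress, because ATF4 also supports growth downstream of mTORC1. An mRNA level does not measure ATF4 protein, which is set largely by translation.

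The composite element is shown for 6 members with a match. They are those called lower on repressor induction, so the choice follows that outcome. The letters TGATGNAA, read on either strand, were searched in RefSeq windows (GRCm38.p6) from 250 bases before to 50 bases after each transcription start. TGATGCAA is 1 of the 4 forms that TGATGNAA covers. Capitals mark the match, and all stretches are written 5′ to 3′ on the strand of the gene, so that TTGCATCA and TTACATCA are matches on the opposite strand.
Asns, chr6:7693214-7693243, minus strand: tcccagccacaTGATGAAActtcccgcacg
Chac1, chr2:119351003-119351102, plus strand: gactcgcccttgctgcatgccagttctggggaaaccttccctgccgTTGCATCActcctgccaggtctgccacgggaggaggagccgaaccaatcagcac
Pck2, chr14:55540117-55540216, plus strand: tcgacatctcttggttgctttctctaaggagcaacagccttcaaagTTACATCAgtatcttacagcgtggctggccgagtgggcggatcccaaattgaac
Vldlr, chr19:27216809-27216838, plus strand: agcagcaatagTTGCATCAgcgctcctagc
Slc1a4, chr11:20332699-20332728, minus strand: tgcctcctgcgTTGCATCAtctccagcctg
Trib3, chr2:152344028-152344057, minus strand: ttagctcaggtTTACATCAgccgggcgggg
The match begins 23 bases before the start in Asns, 193 before in Chac1, 103 before in Pck2 and 200 before in Vldlr. It spans the start in Slc1a4 and lies 15 to 22 bases after it in Trib3. The Asns and Vldlr stretches touch an exon of another annotated transcript start, and the Slc1a4 and Trib3 stretches span or follow the start itself. All of these are cut to 30 bases.

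Of the 28 members with a window in the RefSeq table, 9 (32.1%) held TGATGNAA, against 4.51% of all 27025 genes with windows of the same length (3.97% of all 32851 windows). TGATGCAA was in 6 of the 28 (21.4%), against 1.03% of all genes (0.895% of windows). The other members with TGATGNAA were Slc7a11, Fgf21 and Nupr1. Slc1a5, Slc7a3, Slc7a5, Cth and Eif4ebp1 had no entry. A match is a description of letters, not of a bound site, and the element can also lie outside these windows.

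Each library held between 14928765 and 25262912 counts. Levels below are counts scaled to a library of 1e6 (CPM) scaled by edgeR's TMM factors, and a rise or fall is a change with an adjusted p under 0.05 in edgeR's quasi-likelihood test over 16216 genes. Of the fibroblast markers, Col1a1, Vim and the rest summed to between 18500 and 23700 CPM, but Thy1 had 1 count and Lum 53 counts in all libraries together. In the induced activator libraries, 16.2% to 18.5% of counts fell on the noncoding model Gm26917 and 0.92% to 0.974% on mitochondrially encoded genes. In the other libraries these shares were 9.28% to 12.1% and 0.582% to 0.676%. The choice of library scaling therefore matters for the activator comparisons, and its effect is given beside them. In bulk RNA, fewer expressing cells and less RNA per cell cannot be told apart.

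Of the 33 members, 30 passed the filter on low counts. The 3 that did not are secreted factors that mark strong stress in other settings. Fgf21, a metabolic hormone, had 93 counts over all 18 libraries, Gdf15, which acts on appetite, had 40, and Stc2, a secreted glycoprotein, had 27. The highest group mean among them was 0.323 CPM, for Fgf21 in the induced repressor line.

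Among the other members, serine synthesis genes and Atf4 itself were the most abundant per length of exon. In the uninduced control line Phgdh stood at 137 CPM per kb of exon, Atf4 at 123, Psat1 at 109, Shmt2 at 108, Slc7a5 at 105 and Asns at 80.5. On the same scale, the classical stress genes were lower, with Trib3 at 21.7, Chac1 at 16.6 and Ddit3 at 9.49. The cystine carrier Slc7a11 stood at 0.178 and the cationic amino acid carrier Slc7a3 at 0.114. Across the 6 groups, the uninduced repressor line had the highest group mean for 19 of the 30 members. The lowest group mean was in the induced repressor line for 14 and in the induced activator line for 13.

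**Figure D1:**
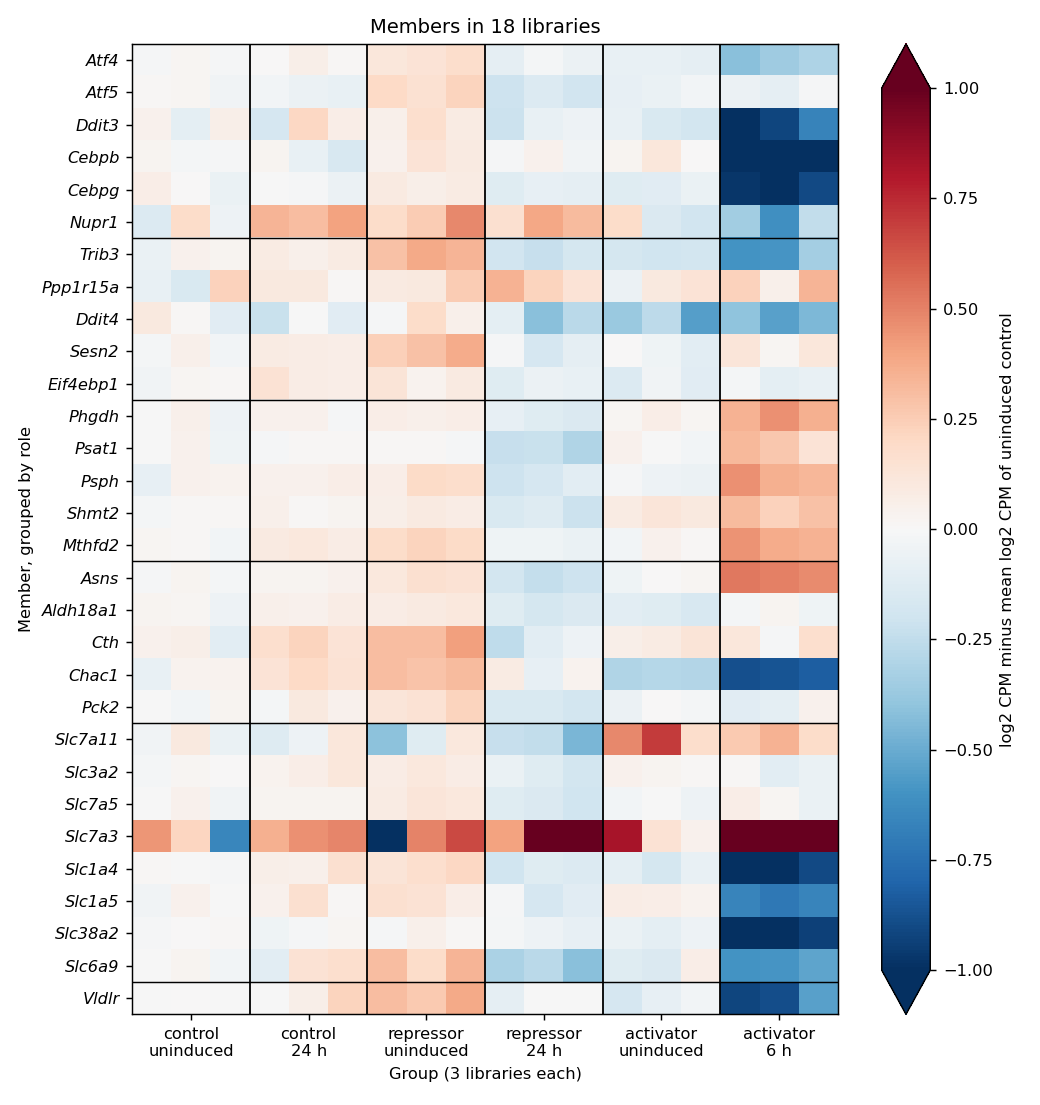
Each row is 1 of the 30 members that passed the filter and each column 1 of the 18 libraries; colour gives log2 CPM minus the mean log2 CPM of the uninduced control libraries, with values beyond 1 shown in the end colours. The uninduced repressor columns are mostly warm and the induced repressor columns mostly cool, while the induced activator columns hold warm rows (serine enzymes, Asns, Slc7a3) beside cool ones (Cebpb, Ddit3, Slc1a4, Slc38a2).

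Before doxycycline, the repressor line held more of these mRNAs than the control line. Of the 30 members tested 13 were higher and 0 lower, where 0.863% of all genes tested were higher, 0.697% lower and 1.56% either. The libraries of the 2 lines did not overlap for 22 members, all higher, against 9.07% of all genes higher and 9.29% lower. The median log2 difference of the members was 0.13, against 0.00 for all genes. The differences were small, between 0.10 and 0.34 on the log2 scale for the 13. They took in all roles: 2 of 6 transcription factors, 2 of 5 regulators, 1 of 5 serine and folate enzymes, 4 of 5 other enzymes, 3 of 8 transporters, and the lipoprotein receptor Vldlr. Scaling to mitochondrially encoded genes left 5 of the 13. In the same comparison 4 of 8 tested fibroblast markers (Col1a1, Col1a2, Pdgfra and Pdgfrb) were higher and 0 lower, with a median of 0.14, and the 10 markers summed to 21600 to 22100 CPM against 20700 to 21200. Their part in the result was not tested.

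Trib3, a pseudokinase that restrains ATF4 activity, had the largest of these differences. Its level was 44, 47.6 and 46.9 CPM in the uninduced control line, 56.5, 59.9 and 58.3 in the uninduced repressor line and 40.9, 40.2 and 40.7 in the uninduced activator line. The 3 lines did not overlap, with the repressor line highest and the activator line lowest (log2 difference of repressor and control line 0.34, SE 0.05, adjusted p = 1.28e-07). Chac1, an enzyme that degrades glutathione, followed the same order at 25.7, 27.8 and 27.8 CPM in the control line, 33.6, 33 and 33.7 in the repressor line and 22, 22.2 and 22.1 in the activator line. The repressor line was higher than the control line by 0.30 (SE 0.05, adjusted p = 0.000128).

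Atf4 (chr15:80255184-80257541, plus strand) stood at 288, 294 and 288 CPM in the control line, 314, 318 and 327 in the repressor line and 276, 276 and 273 in the activator line. The 9 libraries separated by line. The differences were small next to the level (0.14, SE 0.03, adjusted p = 0.000875 for the repressor line and −0.08, SE 0.03, adjusted p = 0.0418 for the activator line). Asns, asparagine synthetase, was at 219, 225 and 217 CPM in the control line, 237, 246 and 244 in the repressor line and 214, 221 and 223 in the activator line. Only the repressor line stood apart (0.14, SE 0.03, adjusted p = 0.00131), and the activator line overlapped the control line (−0.01, 95% interval −0.06 to 0.05). Ddit3, which encodes the death-associated factor CHOP, had 16.7, 15.2 and 16.9 CPM, 16.8, 18.3 and 17.2 CPM and 15.4, 14.6 and 14.3 CPM in the control, repressor and activator lines. Neither line differed from the control line by the test (adjusted p = 0.626 and 0.314).

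Further members of the repressor line had differences from the control line close to those of Trib3 and Chac1. Cth, which makes cysteine by transsulfuration, was at 14.6, 14.6 and 15.7 CPM against 12.2, 12.3 and 11 (0.33, adjusted p = 0.0105). Vldlr was at 57.3, 55.5 and 60.3 CPM against 46.2, 46.5 and 46.2 (0.31, adjusted p = 0.00526). Sesn2, a leucine sensor that restrains mTORC1, was at 48.5, 50.4 and 53.3 CPM against 40.6, 42.6 and 40.3 (0.30, adjusted p = 9.76e-06). In each of these the repressor and control libraries did not overlap. Slc6a9, the glycine transporter GLYT1, was at 37.6, 34.4 and 38.3 CPM against 30.3, 30.9 and 29.8 (0.27, adjusted p = 0.00241). Mthfd2, a mitochondrial folate enzyme, was at 159, 163 and 160 CPM against 142, 141 and 137 (0.19, adjusted p = 1.84e-05). Atf5, a factor related to ATF4, was at 98.5, 95.2 and 100 CPM against 86.6, 87 and 83.8 (0.19, adjusted p = 0.000223). These also separated without overlap. The calls of Cth, Vldlr, Slc7a5, Slc1a4 and Pck2 did not hold without some single library: Cth without control library 3 or repressor library 3 (adjusted p = 0.0759 and 0.107), Vldlr without control library 2 (0.0532), Pck2 without control library 2 or repressor library 3 (0.0672 and 0.118), Slc7a5 without control library 1 or 3 or repressor library 2 or 3 (0.134 to 0.196) and Slc1a4 without any 1 of the 6 (0.066 to 0.223).

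The uninduced activator line went the other way for a few members. Of 30 members 2 were higher than in the control line and 8 lower, against 8.92% and 10.5% of all genes tested (19.5% either). Slc7a11 was at 3.45, 4.01 and 2.8 CPM in the activator line, 2.42, 2.65 and 2.36 in the control line and 1.86, 2.28 and 2.66 in the repressor line. The activator libraries were the highest, and their lowest value lay just above the highest of the other lines (0.48, SE 0.16, adjusted p = 0.0222 against the control line). That call was lost without activator library 1 or 2 or control library 1 or 3 (adjusted p = 0.0551, 0.206, 0.0831 and 0.0605). Ddit4, an inhibitor of mTORC1 also called REDD1, was at 6.67, 7.2 and 5.89 CPM in the activator line against 9.26, 8.73 and 8 in the control line and 8.57, 9.8 and 8.96 in the repressor line. It was the member furthest below the control line (−0.39, SE 0.10, adjusted p = 0.00288), ahead of Chac1 (−0.29, adjusted p = 4.72e-05) and Trib3 (−0.18, adjusted p = 0.00235).

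Aldh18a1, which starts proline synthesis, was at 182, 180 and 176 CPM in the activator line against 200, 199 and 190 in the control line (−0.13, adjusted p = 0.000344). Shmt2, the mitochondrial serine hydroxymethyltransferase, was the other member that was higher, at 357, 366 and 361 CPM against 332, 340 and 340 (0.10, adjusted p = 0.00391). Cebpg, a partner of ATF4, was at 54.5, 54.6 and 56.5 CPM against 61.9, 59.4 and 56.4, and these overlapped (−0.11, adjusted p = 0.0475). Eif4ebp1, which blocks cap-dependent translation, was at 94.7, 102 and 96.6 CPM against 102, 106 and 105 (−0.09, adjusted p = 0.0406). With 1 library left out in turn, the members lower numbered 4 to 5 rather than 8. Atf4 and Slc38a2 lost the call without any 1 of the 6 libraries. Cebpg lost it without activator library 1 or 2 or control library 1 or 2, and Eif4ebp1 without activator library 1 or 3 or control library 2 or 3.

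Set against each other, the uninduced activator and repressor lines had more members called than either had against the control line. The activator line was lower for 21 of 30 members and higher for 1, against 11.4% and 9.7% of all genes tested (21.1% either). The 2 lines did not overlap for 23 members, against 35.8% of all genes. Chac1 was lower in the activator line by −0.60 (SE 0.06, adjusted p = 3.04e-15), Trib3 by −0.52 (SE 0.05, adjusted p = 2.01e-16), Ddit4 by −0.46 (adjusted p = 0.000274) and Vldlr by −0.41 (adjusted p = 9e-06). Vldlr stood at 41.2, 43.8 and 45.5 CPM in the activator line, below all 3 repressor libraries. Slc6a9 (27.9, 27.4 and 31.8 CPM in the activator line) differed by −0.35 and Sesn2 (41.2, 39.9 and 38.3 CPM) by −0.34, with adjusted p = 9.4e-07 and 2.94e-09. Nupr1, a small stress-induced chromatin protein, was at 8.09, 6.45 and 6.26 CPM against 8.13, 8.5 and 9.94 in the repressor line (−0.33, adjusted p = 0.0154), but its call was lost without activator library 2 or 3 or repressor library 3 (adjusted p = 0.12, 0.0798 and 0.154). Ddit3 differed by −0.24 (adjusted p = 0.0234, lost without activator library 2 or 3 or repressor library 2 at 0.0832, 0.0735 and 0.142), Atf4 by −0.22 (adjusted p = 8.89e-10) and Asns by −0.14 (adjusted p = 3.17e-05). Slc7a11 was the member that was higher in the activator line (0.62, adjusted p = 0.00224, or 0.0529 without activator library 2). Cth lost its call without repressor library 3 (0.0559), and Slc38a2 without library 2 of either line (0.0605 and 0.0911). This comparison shares its libraries with the 2 comparisons against the control line, so the 3 are not independent. Of the 8 fibroblast markers 6 were lower in the activator line (median −0.17).

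Induction of dCas9-control for 24 h left the members near their starting levels. None of the 30 was called in either direction, where 0.253% of all genes tested rose, 0.21% fell and 0.463% did either. At an unadjusted p under 0.05 there were 7 members (1741 of all genes), and the lowest adjusted p was 0.127. DESeq2 also called none, but it gave an adjusted p for only 2654 genes in this comparison, and a member without one could not be called. The median log2 change was 0.06, with 24 of 30 changes above 0. Atf4 was at 290, 302 and 292 CPM after induction (0.02, 95% interval −0.03 to 0.08), Asns at 224, 225 and 227 (0.03, −0.02 to 0.09) and Trib3 at 48.9, 47.7 and 48.9 (0.07, −0.02 to 0.16). Chac1 was at 29.8, 31.1 and 30 CPM, above all 3 uninduced control libraries, with a change of 0.16 (0.05 to 0.27, adjusted p = 0.185). Ddit3 was at 14.5, 18.8 and 17 CPM and overlapped its uninduced values (0.06, −0.10 to 0.22). The groups did not overlap for 11 of 30 members, all with the induced libraries higher, against 8.2% of all genes higher, 7.3% lower and 15.5% either. With total counts as the only scaling, 78.4% of the genes called were higher, against 54.7% with TMM and 9.38% with mitochondrial scaling, and the members called stayed at 0 under each.

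**Figure D2:**
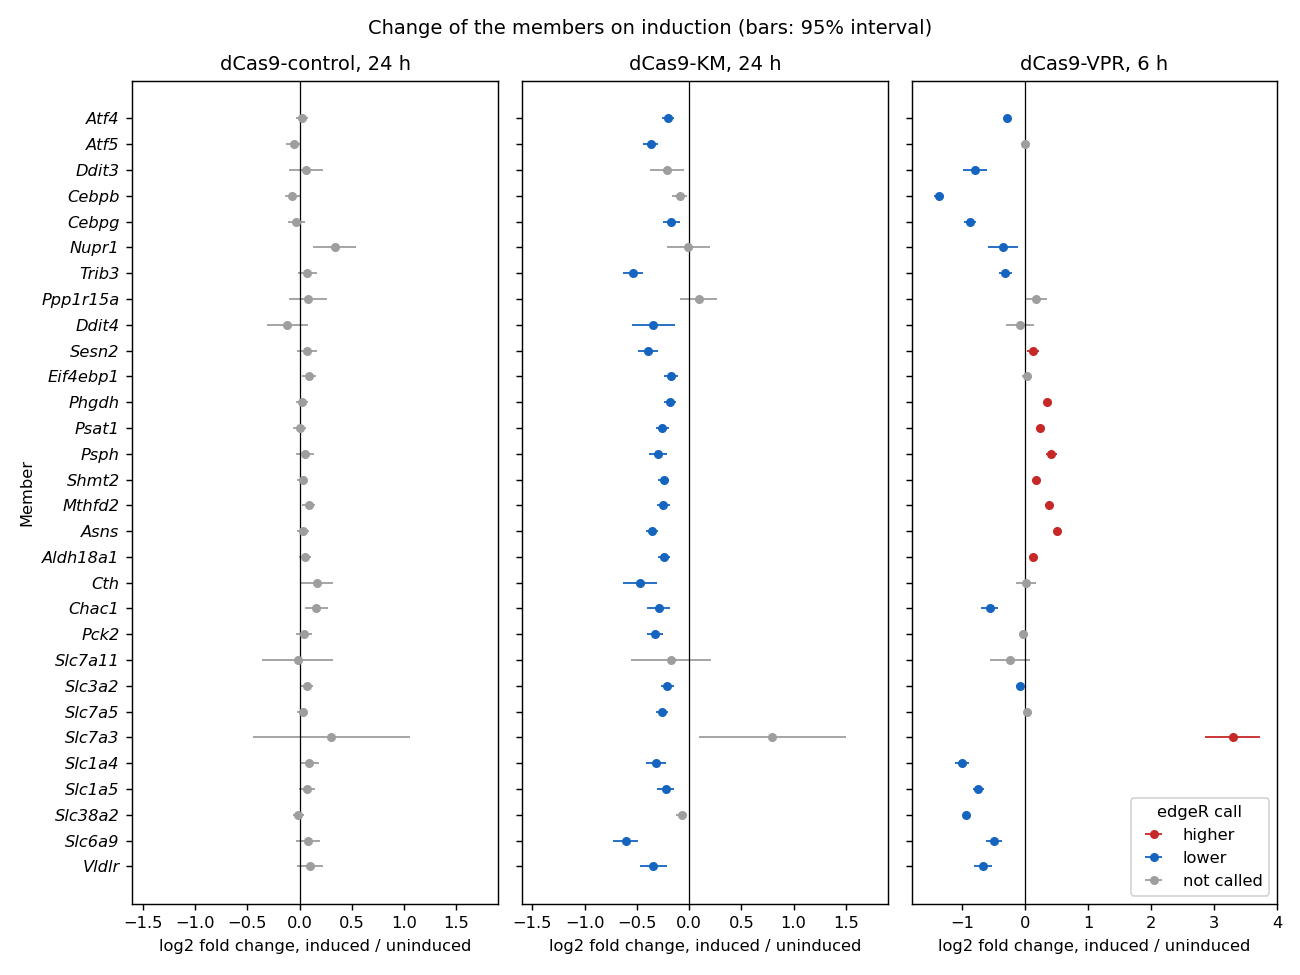
Log2 fold change of each of the 30 members on induction in the control line (24 h), the repressor line (24 h) and the activator line (6 h), with 95% intervals as bars; the axis of the activator panel is wider. No member was called in the control line, 23 lay below 0 and were called in the repressor line, and 9 were higher and 13 lower in the activator line with TMM scaling (1 and 29 with mitochondrial scaling).

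Induction of dCas9-KM for 24 h lowered most of these genes by a modest amount. Of 30 members 23 fell and 0 rose, where 4.59% of all genes tested fell, 5.21% rose and 9.81% did either. The induced libraries lay wholly below the uninduced ones for 26 members and wholly above for none, against 13.3% and 13.4% of all genes. The falls ran from 11.1% to 34.3%, and the median log2 change of the members was −0.24, against 0.00 for all genes. All 5 serine and folate enzymes and all 5 other metabolic enzymes fell. So did 4 of 5 regulators, 5 of 8 transporters, 3 of 6 transcription factors and Vldlr. With total counts as the only scaling, 73.4% of the genes called over all genes were higher, against 53.1% with TMM, while the members that fell numbered between 22 and 26 under every other scaling, test or filter tried.

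Among the transcription factors, Atf4 was at 272, 286 and 278 CPM after induction, against 314, 318 and 327 before. All 3 induced libraries lay below the uninduced repressor libraries and below every library of the control line (−0.20, SE 0.03, adjusted p = 5.27e-08). Atf5 was at 74.2, 78 and 75.3 CPM, the lowest values of any group for this gene (−0.37, SE 0.04, adjusted p = 6.76e-14). Cebpg fell to 54.5, 55.8 and 55.6 CPM from 62.9, 61.5 and 62.5 (−0.17, adjusted p = 0.00244, or 0.0505 with mitochondrial scaling). Ddit3 was at 14, 15.4 and 15.7 CPM, below its uninduced values without passing the test (−0.21, 95% interval −0.38 to −0.05, adjusted p = 0.0945). For Cebpb, a C/EBP factor of inflammation and fat cell formation, the change was −0.09 (−0.16 to −0.02), and for Nupr1 it was −0.01 (−0.21 to 0.20).

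The regulators that feed back on the response held some of the largest falls. Trib3 was at 40.5, 39.3 and 40.9 CPM after induction, below every uninduced repressor and control library. It fell by 31% (−0.54, SE 0.05, adjusted p = 9.47e-16). Sesn2 was at 40.9, 36.6 and 38.6 CPM (−0.39, SE 0.05, adjusted p = 4.1e-10). Ddit4 was at 8.09, 6.47 and 7.16 CPM, below its uninduced libraries (−0.34, SE 0.10, adjusted p = 0.0189). The Ddit4 call did not hold without induced library 2 or 3 or uninduced library 2 (adjusted p = 0.186, 0.0615 and 0.151) or with DESeq2 (0.114). Eif4ebp1 changed by −0.17 (adjusted p = 0.000164). Ppp1r15a (GADD34), the phosphatase subunit that reverses eIF2 phosphorylation, was not called, with 13.7, 12.5 and 11.8 CPM against 11.4, 11.5 and 12.8 (0.09, 95% interval −0.09 to 0.27).

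The serine pathway moved as a block of similar size. Phgdh, which commits glycolytic carbon to serine, was at 322, 312 and 308 CPM after induction against 356, 353 and 356 before (−0.18, SE 0.03, adjusted p = 1.38e-06). Psat1, the aminotransferase of the next step, was at 394, 396 and 375 CPM against 466, 466 and 458 (−0.26, SE 0.03, adjusted p = 8.14e-09). Psph, the phosphatase that completes serine, was at 44.9, 46.2 and 48.2 CPM against 54.1, 59 and 58.5 (−0.30, SE 0.04, adjusted p = 2.59e-07). For each of these enzymes the groups did not overlap. Shmt2 and Mthfd2, which pass the carbon of serine to mitochondrial folate, changed by −0.24 and −0.25 (adjusted p = 3.72e-11 and 1.84e-09).

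Asns was at 194, 187 and 191 CPM after induction, below all other libraries of the 3 lines. It fell by 21.6% (−0.35, SE 0.03, adjusted p = 3.54e-17). Cth was at 9.9, 11 and 11.4 CPM against 14.6, 14.6 and 15.7, a fall of the same order at a far lower level (−0.47, SE 0.08, adjusted p = 8.7e-06). Chac1 was at 28.7, 25.6 and 27.8 CPM, around the values of the uninduced control line (−0.29, SE 0.06, adjusted p = 4.35e-05). Pck2, the mitochondrial enzyme that makes phosphoenolpyruvate, was at 77.2, 77 and 75.7 CPM against 93.4, 94.7 and 100 (−0.33, SE 0.04, adjusted p = 9.42e-11). Aldh18a1 changed by −0.24 (adjusted p = 5.85e-10).

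Of the transporters, Slc6a9 had the largest fall of any member. It was at 24.4, 25.2 and 22.7 CPM after induction, a fall of 34.3% that left it below every uninduced library of the 3 lines (−0.61, SE 0.06, adjusted p = 8.98e-13). Slc1a4, a carrier of neutral amino acids, was at 45.9, 48.7 and 48 CPM against 57.9, 59.4 and 60.9 (−0.32, SE 0.05, adjusted p = 6.4e-07). The large neutral amino acid carrier Slc7a5 changed by −0.26, the glutamine carrier Slc1a5 by −0.23 (adjusted p = 1.03e-11 and 1.33e-05), and Slc3a2, the heavy chain that brings Slc7a5 and Slc7a11 to the membrane, by −0.21 (adjusted p = 1.12e-07). Slc38a2, an amino acid carrier induced by starvation, was not called (−0.07, 95% interval −0.13 to −0.02), nor was Slc7a11 (−0.17, −0.55 to 0.20). Slc7a3 was at 0.543, 1.05 and 0.848 CPM against 0.196, 0.582 and 0.652, too few counts for a narrow interval (0.80, 0.09 to 1.5). Vldlr fell by 21.2% to 43.5, 46.2 and 46.2 CPM (−0.34, SE 0.06, adjusted p = 0.00037).

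The uninduced repressor libraries enter both this comparison and the one with the uninduced control line, so a high start and a fall are not separate measurements. The values side by side differ by gene. Trib3 was 0.34 above the control line before induction and changed by −0.54, and Chac1 was 0.30 above and changed by −0.29. Psat1 was level with the control line before (0.00, 95% interval −0.06 to 0.06) and changed by −0.26, and Shmt2 was 0.08 above (adjusted p = 0.15) and changed by −0.24. In the induced repressor libraries the fibroblast markers summed to 18500 to 18800 CPM, against 21600 to 22100 before induction, and 7 of 8 tested fibroblast markers fell (median −0.25). The neural markers, mostly Tubb3, summed to 52.4 to 53.4 CPM against 32.7 to 35.4, and the muscle markers to 10.6 to 11.8 CPM against 6.53 to 6.73. Epithelial markers stayed under 1 CPM in all groups. The part of these shifts in the fall of the members was not tested.

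A comparison that uses no uninduced library sets the induced repressor line against the induced control line, both at 24 h but at different doses. There 19 of 30 members were lower and 0 higher, where 5.87% of all genes tested were lower, 5.07% higher and 10.9% either. The median difference was −0.17, and the 19 ranged from −0.41 to −0.08. The 5 serine and folate enzymes, 4 of 5 other enzymes and 5 of 8 transporters were lower, along with 3 of 5 regulators and 2 of 6 transcription factors. Of 8 tested fibroblast markers 5 were lower and 0 higher (median −0.17), and their part in the result was not tested.

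Slc6a9 again differed most, with 24.4, 25.2 and 22.7 CPM against 28.2, 33.5 and 34 in the induced control line (−0.41, SE 0.06, adjusted p = 3.86e-07). Cth was at 9.9, 11 and 11.4 CPM against 13.3, 13.8 and 13 (−0.31, SE 0.08, adjusted p = 0.00562, or 0.0584 without induced repressor library 1). Trib3 differed by −0.27 (adjusted p = 1.53e-05). Psat1, at 458, 466 and 465 CPM in the induced control line, differed by −0.25 (adjusted p = 1.07e-08), and Asns by −0.25 (adjusted p = 1.75e-10). These groups did not overlap. Slc1a4 (55.1, 54.8 and 59.1 CPM in the induced control line) differed by −0.25, Psph (53.4, 53.3 and 54.2 CPM) by −0.21 and Aldh18a1 by −0.21. Aldh18a1 was at 180, 174 and 178 CPM in the induced repressor line and 203, 202 and 207 in the induced control line.

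Atf4 itself differed by −0.08 (adjusted p = 0.0409). That call was lost without induced control library 2 or 3 or induced repressor library 1 or 3 (adjusted p from 0.0614 to 0.22). The calls of Atf5 and Sesn2 were also lost without single libraries: Atf5 without induced control library 1 or induced repressor library 1 or 3 (adjusted p from 0.0654 to 0.0806), and Sesn2 without induced repressor library 2 (0.164). Slc1a5 was lost without library 2 of either group (0.0606 and 0.0502). Chac1 (−0.15, adjusted p = 0.0634), Ddit3 (−0.16, adjusted p = 0.219) and Vldlr (−0.13) were not called.

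The change on induction was also tested directly for a difference between the 2 lines. It was lower in the repressor line for 21 of 30 members and higher for 0. On control induction itself no member was called, and 24 of 30 changes were above 0. Of all genes tested, 1.54% had a lower, 1.19% a higher and 2.73% either change in the repressor line. The 21 differences lay between −0.69 for Slc6a9 and −0.20 for Phgdh. Cth followed at −0.64 (SE 0.11, adjusted p = 4.39e-05), Trib3 at −0.61 (SE 0.07, adjusted p = 2.36e-11), Sesn2 at −0.46 (adjusted p = 3.24e-07), Chac1 at −0.45 (adjusted p = 1.79e-05) and Vldlr at −0.44 (adjusted p = 0.00284). The test also takes in the difference between the lines before induction. Vldlr was 0.31 above the control line then, and between the induced lines it differed by −0.13 and was not called. Chac1 was not called between the induced lines either. The Vldlr call was lost with total counts as the only scaling (adjusted p = 0.0694). Asns differed by −0.38 (adjusted p = 7.72e-12) and Atf4 by −0.22 (adjusted p = 4.36e-05). Ddit3 was not called (−0.28, 95% interval −0.51 to −0.05, adjusted p = 0.26). Scaling to mitochondrially encoded genes left 15 of the 21, and leaving out any 1 library left the number at 21. Of the 8 fibroblast markers 5 also had a lower change in the repressor line (median −0.23).

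**Figure D3:**
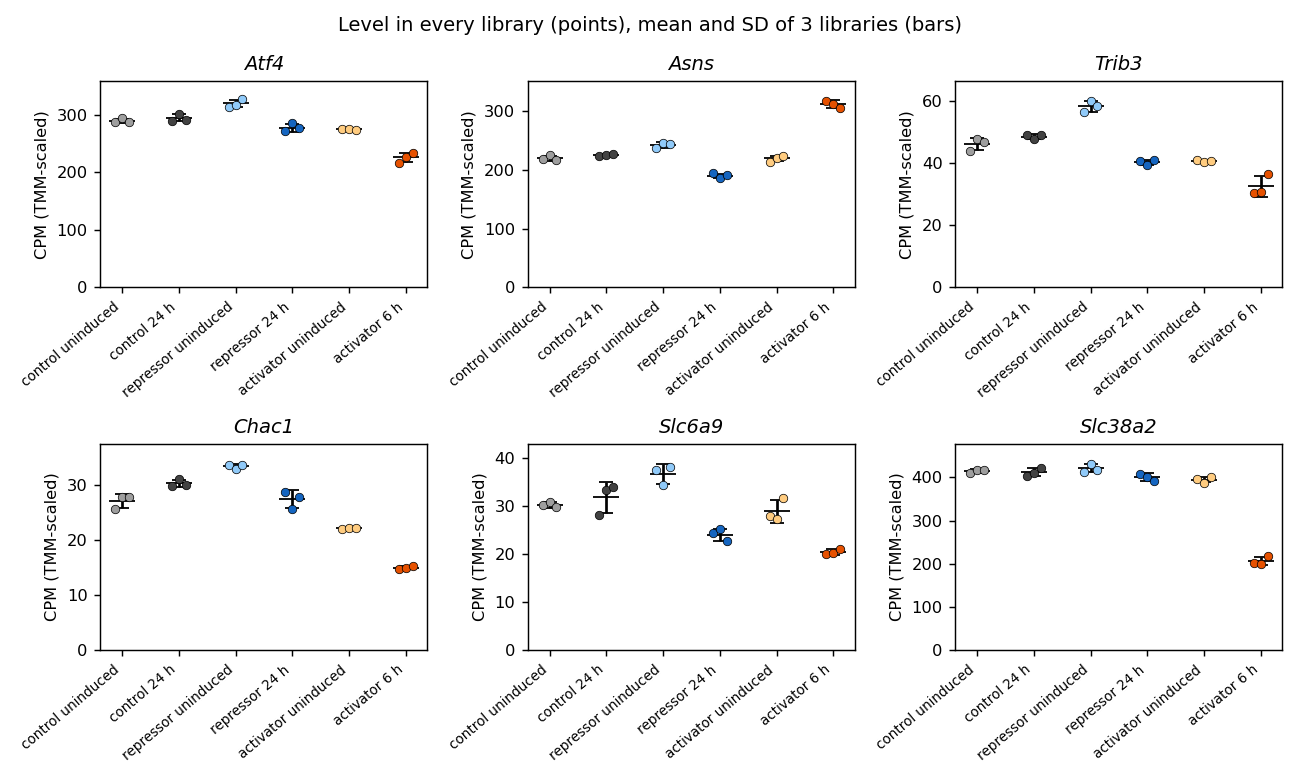
TMM-scaled CPM of Atf4, Asns, Trib3, Chac1, Slc6a9 and Slc38a2 in each of the 18 libraries (points), with the mean and SD of each group of 3 (bars), on axes that start at 0. Trib3, Chac1 and Slc6a9 are highest in the uninduced repressor line; Asns is highest after activator induction (its change was −0.24 with mitochondrial scaling), where Atf4, Trib3, Chac1, Slc6a9 and Slc38a2 are lowest.

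Induction of dCas9-VPR for 6 h split the members. With TMM scaling 9 of 30 rose and 13 fell, where 38.2% of all genes tested rose and 37.2% fell, so the shares of the members were near those of all genes or below. The groups did not overlap for the same numbers of members, 9 higher and 13 lower, against 38.5% and 37.8% of all genes (76.3% either). By role the counts differed, and no test compared the roles. All 5 serine and folate enzymes, Asns, Aldh18a1, Sesn2 and Slc7a3 rose, and 5 of 6 transcription factors and 5 of 8 transporters fell, with Trib3, Chac1 and Vldlr. Of the 5 regulators 3 were not called, and of the 5 other enzymes 2. Of all genes, 75.3% changed in either direction, and the directions of the small rises depend on the scaling. Upper-quartile factors gave 13 members up and 11 down, total counts as the only scaling 5 up and 21 down, and scaling to mitochondrially encoded genes 1 up and 29 down. The median of all genes then moved to −0.22 and −0.74 on the log2 scale, from 0.00 with TMM. Of the genes called, 50.7% were higher with TMM, 32.8% with total counts and 9.75% with mitochondrial scaling. Relative to the median gene, 14 members stood above and 16 below with TMM, total counts, RLE and upper-quartile factors, and 13 above and 16 below with mitochondrial scaling.

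Of the 6 transcription factors 5 fell and Atf5 was not called. Cebpb was at 47.7, 44.4 and 43.4 CPM after induction against 114, 121 and 112 before. The groups were far apart, and Cebpb fell by 61.1% (−1.36, SE 0.04, adjusted p = 6.6e-41). Cebpg was at 30.1, 27.8 and 31.7 CPM against 54.5, 54.6 and 56.5 (−0.88, SE 0.05, adjusted p = 1.2e-29). Ddit3 was at 6.82, 8.61 and 10.2 CPM against 15.4, 14.6 and 14.3 (−0.79, SE 0.10, adjusted p = 4.46e-11), the lowest of its 6 groups. Atf4 was at 217, 227 and 234 CPM against 276, 276 and 273, again below every other library, and fell by 17.8% (−0.28, SE 0.03, adjusted p = 7.07e-15). Nupr1 changed by −0.36 (adjusted p = 0.00599), a call that was lost without induced library 2 or uninduced library 1 (0.0539 and 0.135) and with DESeq2 (0.0776). Atf5 was at 82.3, 80.6 and 84.9 CPM against 81.2, 82 and 84.2 and was not called (0.01, 95% interval −0.07 to 0.08; −0.22 with total counts, and 0.11 with adjusted p = 0.00447 with upper-quartile factors).

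Asns and the serine pathway had the opposite sign under TMM. Asns was at 318, 313 and 305 CPM after induction against 214, 221 and 223 before. These were the highest Asns values of the 18 libraries (0.51, SE 0.03, adjusted p = 4.44e-29, a rise of 42.1%), and it was −0.24 with mitochondrial scaling. Psph was at 71, 66.3 and 65.2 CPM against 51.5, 50 and 49.8 (0.42, SE 0.04, adjusted p = 6.59e-15). Mthfd2 was at 191, 181 and 178 CPM against 137, 144 and 141 (0.38, SE 0.03, adjusted p = 6.58e-20). Phgdh was at 432, 467 and 436 CPM against 344, 356 and 345 (0.35, SE 0.03, adjusted p = 8.26e-20). In all of these the groups were apart. Psat1 changed by 0.24 and Shmt2 by 0.18, and with total counts these were 0.01 and −0.04. With mitochondrial scaling all 5 serine and folate enzymes were below 0, between −0.56 for Shmt2 and −0.32 for Psph.

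Among the regulators, Trib3 was at 30.5, 30.6 and 36.4 CPM against 40.9, 40.2 and 40.7 before induction. All 3 induced values lay below all others of this gene (−0.31, SE 0.05, adjusted p = 8.1e-08). Chac1 was at 14.7, 14.9 and 15.3 CPM against 22, 22.2 and 22.1 (−0.56, SE 0.07, adjusted p = 3.03e-12), again the lowest of the 6 groups. Sesn2 rose slightly (0.13, adjusted p = 0.0107, or 0.0659 without uninduced library 3), and was −0.09 with total counts. Ppp1r15a was not called (0.17, 95% interval −0.01 to 0.35, adjusted p = 0.0769), although its adjusted p was 0.0235 without induced library 2, 0.0258 with RLE factors and 0.00432 with upper-quartile factors. Ddit4 was at 6.55, 5.94 and 6.34 CPM and overlapped its uninduced values (−0.08, −0.30 to 0.14). Eif4ebp1, Cth and Pck2 changed by 0.03, 0.02 and −0.03 and were not called, although Eif4ebp1 was called higher with upper-quartile factors (0.13, adjusted p = 0.000424) and Pck2 lower with total counts (−0.25, adjusted p = 2.25e-07).

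Of the 8 transporters 5 fell, 1 rose and 2 were not called. Slc38a2 was at 202, 200 and 217 CPM against 397, 388 and 400 before induction, and fell by 47.6% (−0.93, SE 0.03, adjusted p = 6.73e-46). Slc1a4 was at 22, 22 and 28.3 CPM against 49.4, 46.7 and 50.1 (−1.0, SE 0.06, adjusted p = 9.38e-26). Slc1a5 was at 46.4, 44.6 and 46.4 CPM against 77.2, 77 and 75.3 (−0.74, SE 0.04, adjusted p = 8.2e-28). None of these groups overlapped, and the glycine carrier Slc6a9 was also lower, at 20, 20.2 and 21.1 CPM (−0.49, adjusted p = 2.6e-10). Slc7a5 was not called (0.04, 95% interval −0.02 to 0.09). It was called higher without induced library 3, with DESeq2, with RLE factors and with upper-quartile factors (adjusted p = 0.0138, 0.028, 0.0104 and 4.53e-06). Its partner Slc3a2 changed by −0.08 (adjusted p = 0.0128), 0.02 with upper-quartile factors and without a call when induced library 2 was left out (0.0961), with DESeq2 (0.299) or with RLE factors (0.263). Vldlr was at 24.5, 25.1 and 31.8 CPM against 41.2, 43.8 and 45.5 (−0.66, SE 0.07, adjusted p = 3.5e-09).

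Slc7a3 was the exception among the carriers. It was at 6.05, 5.14 and 5.22 CPM after induction against 0.728, 0.455 and 0.425 before, and between 0.196 and 1.05 in all libraries of the other lines. The induced activator libraries stood apart from the other 15 (3.29, SE 0.22, adjusted p = 7.41e-24), and with mitochondrial scaling it was the member still called higher (2.55). Its level remained low next to the other carriers, with 289 counts in the 3 induced activator libraries together. In the same libraries the endothelial markers, mostly Pecam1, summed to 19.2 to 24.1 CPM against 0.304 to 1.25 in the other groups, and the neural markers to 21.1 to 22 CPM against 33.8 to 35.5 before induction. The fibroblast markers summed to 23200 to 23700 CPM against 20500 to 20700. Their part in the changes of the members was not tested.

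Against the change in the control line, 7 members had a higher and 13 a lower change in the activator line. The same test called 30.8% of all genes higher, 33% lower and 63.7% either. The time of induction differed, 6 h against 24 h. The difference was −1.29 for Cebpb (SE 0.06, adjusted p = 9.17e-32), −1.10 for Slc1a4 (SE 0.07, adjusted p = 1.87e-21), −0.92 for Slc38a2 (SE 0.04, adjusted p = 2.04e-35) and −0.85 for both Ddit3 and Cebpg. Chac1 differed by −0.72 (adjusted p = 6.72e-12), Trib3 by −0.39 (adjusted p = 9.62e-07) and Atf4 by −0.31 (adjusted p = 1.82e-10). On the other side were Slc7a3 at 2.99 (SE 0.49, adjusted p = 1.06e-07) and Asns at 0.47 (SE 0.04, adjusted p = 2.23e-18), with the 5 serine and folate enzymes between 0.15 and 0.37. With total counts 2 members had a higher and 21 a lower change, where 2686 and 7517 of all 16216 genes did. With mitochondrial scaling these were 1 and 29 members, and 957 and 12059 of all genes.

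The repressor and activator inductions share no library. Of the 23 members that fell with the repressor, 8 rose and 9 fell with the activator, where 38.2% of all genes rose and 37.2% fell, so these shares are near the background and are a description only. Those 8 were 8 of the 9 that rose with the activator, and those 9 were 9 of the 13 that fell. The members with opposite signs were Asns, Aldh18a1, Sesn2 and the 5 serine and folate enzymes. Members that fell in both were Atf4, Cebpg, Trib3, Chac1, Slc3a2, Slc1a4, Slc1a5, Slc6a9 and Vldlr. Ddit3, Cebpb, Nupr1 and Slc38a2 fell with the activator and were not called with the repressor, a contrast that was not tested as such. Slc7a3 rose with the activator alone, also without a test of the difference between these 2 lines. These activator calls are those with TMM; with total counts Aldh18a1, Sesn2 and Shmt2 changed sign, and with mitochondrial scaling all 8 members with opposite signs did.

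Genes outside the 33 were read from lists of related pathways, chosen like the members with earlier results of these data known. Their counts stand beside the shares of all genes tested. With the repressor 4.59% of all genes fell and 5.21% rose. With the activator under TMM 37.2% fell and 38.2% rose, so many calls in a list are common there. With mitochondrial scaling 12993 of all 16216 genes were lower and 1404 higher with the activator, and with total counts 8094 and 3955. Counts of a list under those scalings stand beside these. Aminoacyl-tRNA synthetases load amino acids onto tRNA, and ATF4 is known to act on part of them. Of 13 genes known as ATF4 targets, counting the tRNA exporter Xpot, 12 fell with the repressor and none rose (median log2 change −0.17). Of 8 other cytosolic synthetases none fell and none rose (median −0.02), and none had an adjusted p under 0.1. Xpot was at 269, 268 and 264 CPM after induction against 314, 327 and 320 before (−0.27, adjusted p = 1.59e-12), Gars at 329, 327 and 325 against 374, 387 and 381 (−0.22, adjusted p = 4.98e-10) and Tars at 157, 157 and 151 against 178, 179 and 182 (−0.22, adjusted p = 3.62e-08). With the activator both groups of synthetases rose, 12 of 13 (median 0.35) and 7 of 8 (median 0.32). These are TMM values: with total counts 9 of 13 and 5 of 8 were higher, and with mitochondrial scaling all 13 and all 8 were lower. Aars (0.46), Gars (0.44) and Mars (0.41) led the first group, and Hars (0.45), Kars (0.45) and Dars (0.38) the other.

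Of 20 tested other ATF4 targets outside the members, 10 fell and 0 rose with the repressor (median −0.11). Aldh1l2, a mitochondrial folate enzyme, was at 107, 108 and 114 CPM against 148, 160 and 162 (−0.51, adjusted p = 0.000175). The mitochondrial alanine aminotransferase Gpt2 changed by −0.42 (adjusted p = 1.2e-16) and Herpud1, a protein of ER-associated degradation, by −0.23 (adjusted p = 4.35e-05). With the activator 11 rose and 5 fell, among them the stress factor Atf3 (0.95, adjusted p = 1.2e-10), and Cebpd (−0.87) and Jdp2 (−0.82), both transcription factors. With mitochondrial scaling none of the 20 was higher and 19 were lower, where 12993 of all 16216 genes were lower. With total counts 6 of them fell and 2 rose on repressor induction, and 4 rose and 9 fell on activator induction. Before induction, 3 of the 20 had a higher level in the repressor line and none a lower one, compared with the control line. Of all genes tested, 0.863% were higher and 0.697% lower.

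Chaperone genes of the ATF6 and XBP1 arms of the unfolded protein response did not follow the members in the repressor line. None of 14 fell and 1 rose, Dnajc3, a co-chaperone that inhibits eIF2 kinases (0.11, adjusted p = 0.0353), and the median was 0.01. The call of Dnajc3 was lost with DESeq2, and none rose without any 1 uninduced library or without induced library 2. With the activator 11 of 14 rose and 2 fell (median 0.38). With mitochondrial scaling all 14 fell, as did 12993 of all 16216 genes. Calr, the ER chaperone calreticulin, changed by 0.51 (adjusted p = 2.54e-31), and the factor Xbp1 (−0.92, adjusted p = 9.89e-33) and Dnajb9 (−0.50) fell.

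Among 17 genes for eIF2, its exchange factor, its kinases and its phosphatase, 1 rose with the repressor and none fell (median −0.02). That gene was Eif2ak2, which encodes the double-stranded RNA sensor PKR (0.16, adjusted p = 0.00647). Eif2ak2 was not called with DESeq2 or without induced library 2. With the activator 8 rose and 6 fell under TMM, where 38.2% of all genes rose and 37.2% fell. With mitochondrial scaling all 17 fell, as did 12993 of all 16216 genes. Ppp1r15b, the constitutive partner of the eIF2 phosphatase, was at 98.8, 94.7 and 98.6 CPM against 174, 173 and 174 (−0.83, adjusted p = 1.07e-39), while Ppp1ca, its catalytic subunit, changed by 0.56 (adjusted p = 8.64e-32) and the adaptor Nck1 by −0.55.

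Of 12 NRF2 target genes, the other main response to cystine and glutathione shortage, 7 fell and 1 rose with the repressor (median −0.11). Osgin1 was at 21.6, 20.7 and 19.5 CPM against 25.1, 27.8 and 27.6 (−0.38, adjusted p = 1.82e-06), Gclc, which starts glutathione synthesis, changed by −0.21 and Srxn1 by −0.17. The 7 became 3 with total counts or mitochondrial scaling, 4 with DESeq2, and 3 or 4 without any 1 of uninduced repressor libraries 1, 2 and 3 and induced repressor libraries 2 and 3. Compared with the change in the control line, 2 of the 12 had a lower change, against 10 of 13 ATF4-target synthetases and 8 of 20 other ATF4 targets. Set against the induced control line, however, 8 of the 12 were lower in the induced repressor line and 0 higher (median −0.12). There 19 of 30 members, 9 of 13 ATF4-target synthetases and 8 of 20 other ATF4 targets were lower, where 5.87% of all genes were. The fall was therefore not particular to ATF4 targets in that comparison. With the activator 6 rose and 5 fell, where 38.2% of all genes rose and 37.2% fell, with Osgin1 at −1.52 and Gclc at −0.70. Other amino acid carriers did not move one way in the repressor line. Of 9 tested, 1 rose (Slc38a4, 0.64) and 3 fell, among them the glutamate carrier Slc1a3 (−0.61) and Slc7a2 (−0.36). Of 12 genes of amino acid sensing at mTORC1, 2 rose and 1 fell. Those that rose were Castor2 (0.57) and Castor1 (0.40), and Sesn3 (−0.19) fell. With DESeq2 1 sensing gene rose and none fell, and none fell without any 1 uninduced library or without induced library 1 or 2. Of 10 folate genes outside the members none was called with the repressor. With the activator 2 carriers rose and 6 fell, 4 sensing genes rose and 5 fell, and 5 folate genes rose and 2 fell. These counts stand beside the same shares of all genes, 38.2% and 37.2%. With mitochondrial scaling no gene of these 3 lists, and none of the 12 NRF2 targets, was higher with the activator, where 1404 of all 16216 genes were.

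**Figure D4:**
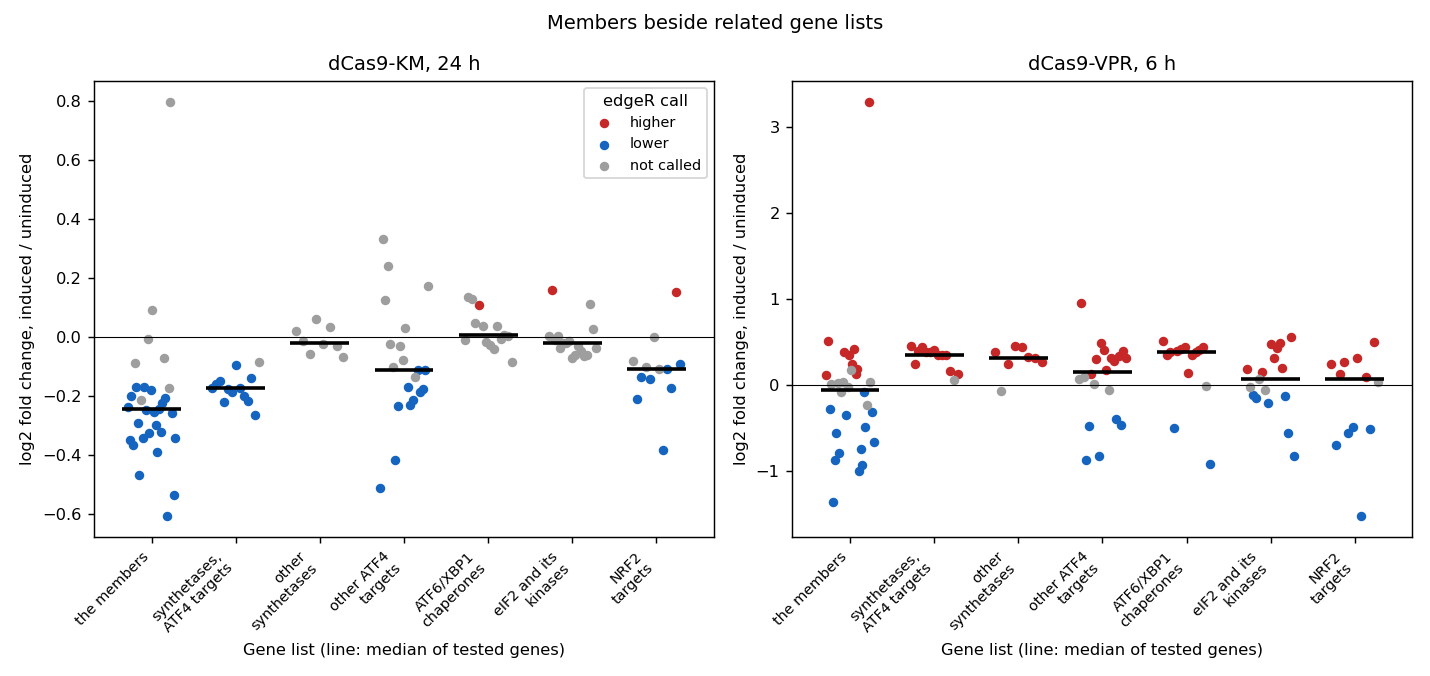
Log2 fold change of every tested gene of the 33-gene set and of 6 related lists on repressor induction (left) and activator induction (right), each point 1 gene, the bar the median. In the repressor panel the members (median −0.24) and the ATF4-target synthetases (−0.17) lie mostly below 0. Of the other ATF4 targets (−0.11) 10 of 20 were called lower, and of the NRF2 targets (−0.11) 7 of 12. The other synthetases (−0.02), ATF6/XBP1 chaperones (0.01) and eIF2 genes (−0.02) lie around 0.

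Matches to TGATGNAA did not set apart the members that fell with the repressor. Of the 9 members with a match, 8 were tested and 6 fell, among them Asns, Trib3, Chac1, Pck2, Slc1a4 and Vldlr, whose stretches are printed above. Nupr1 and Slc7a11 hold TGATGCAA and were not called. Of 19 members with a window and no match, 17 were tested and 13 fell.

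Some counts are less certain because exons of other genes overlap the member on the opposite strand, and the strand setting of the counting is not given in the sources used here. The shared part is 27.8% of the exon bases of Slc6a9 (with Ccdc24, 421 counts in all), 20.7% of Cebpb (with Tmem189), 10.4% of Psph (with Cct6a, which has 188687 counts against 19655 for Psph), 4.11% of Atf5 (with Nup62) and 3.97% of Ddit3 (with Mars). For these 5 a part of the change may belong to the neighbour.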

How the data were processed

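RNA of 18 libraries was measured by rRNA-depleted, stranded, paired-end sequencing with 150-base reads, per the labels. The deposited table holds whole-number read counts per gene that the authors made; the build was mm10 per the submitters' processing notes, and no source used here gives the aligner, counter, annotation or strand setting. Symbols, coordinates (GRCm38) and exon lengths come from GENCODE M21, in which 47310 of 47937 IDs were found by ID without version; the others held 0.042% of the counts. Counts were tested with edgeR 4.0.16 in R 4.3.3 (TMM, filterByExpr, robust quasi-likelihood fit of 6 group coefficients to all 18 libraries, 12 residual degrees of freedom, common biological coefficient of variation 0.0246), with Benjamini-Hochberg adjustment over 16216 genes at 0.05. The SE is the log2 fold change divided by the square root of F; intervals are 95%. There were 9 comparisons. Alternatives were other scalings, DESeq2 1.42.0, no filter, only the groups compared, a replicate block and each library left out.

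The members and all lists were chosen with earlier results of these data known. All 33 members may be named; values per library are given for up to 8 called members a comparison with the largest change, for Atf4, Asns, Trib3, Chac1 and Ddit3 throughout, and for further members described by role after their values were seen. Of each other list up to 3 called genes a comparison are named. Promoter windows are RefSeq's (GRCm38.p6).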

Additional observations from a re-analysis of the deposited data

Results flagged for a closer look

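The results singled out here are the members whose change on induction differed between lines by a test of the difference itself, the interaction term in edgeR with the adjusted p under 0.05. Values are log2 differences. Time or dose of induction differed together with the effector, and these cannot be told apart.

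In the activator line compared with the control line, the change was lower for Atf4 (−0.31), Ddit3 (−0.85), Cebpb (−1.29), Cebpg (−0.85) and Nupr1 (−0.69) among the transcription factors. It was also lower for Trib3 (−0.39), Chac1 (−0.72) and Vldlr (−0.76). Among the transporters it was lower for Slc3a2 (−0.15), Slc1a4 (−1.10), Slc1a5 (−0.81), Slc38a2 (−0.92) and Slc6a9 (−0.57). It was higher for Slc7a3 (2.99), Asns (0.47), Phgdh (0.33), Psat1 (0.24), Psph (0.37), Shmt2 (0.15) and Mthfd2 (0.30).

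In the repressor line compared with the control line, the change was lower for Atf4 (−0.22), Atf5 (−0.31), Trib3 (−0.61), Sesn2 (−0.46) and Eif4ebp1 (−0.26). The serine and folate enzymes Phgdh (−0.20), Psat1 (−0.26), Psph (−0.35), Shmt2 (−0.27) and Mthfd2 (−0.33) were lower, as were Asns (−0.38), Aldh18a1 (−0.29), Cth (−0.64), Chac1 (−0.45) and Pck2 (−0.37). The transporters Slc3a2 (−0.28), Slc7a5 (−0.29), Slc1a4 (−0.41), Slc1a5 (−0.29) and Slc6a9 (−0.69) and the receptor Vldlr (−0.44) were lower too. No member was called with a higher change in the repressor line. These differences also take in the levels before induction, which were called higher in the repressor line for 13 of 30 members.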

How the results depend on the processing

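The count of members that fell with the repressor (23) stayed between 22 and 26 under 7 other scalings, tests, filters or fits and between 22 and 23 with any 1 library left out; the difference from the control line (21) stayed between 15 and 21. Counts in the activator comparisons depend on the scaling: 9 members up became 13 with upper-quartile factors, 11 with RLE factors, 10 with DESeq2, 5 with total counts and 1 with mitochondrial scaling, and 13 down became 11, 12, 11, 21 and 29. Against the control line 7 up became 2, 1 and, with upper-quartile factors, 11, and 13 down became 21 and 29. For the uninduced activator line against the control line, 2 up became 0 with mitochondrial scaling, 1 with DESeq2 and 1 to 2 with a library left out, and 8 down became 4 with total counts, with upper-quartile factors and with no filter, and 4 to 5 with a library left out. The 13 members higher in the uninduced repressor line became 5 with mitochondrial scaling, and the 19 lower in the induced repressor than in the induced control line became 12. With a library left out, the member higher in the uninduced activator than in the repressor line became 0 to 1, and members higher in the induced repressor than in the induced control line became 0 to 1 (Cebpb without induced control library 1). Reversed signs on activator induction with total counts were Atf5 −0.22, Sesn2 −0.091, Eif4ebp1 −0.20, Shmt2 −0.042, Aldh18a1 −0.10, Cth −0.20 and Slc7a5 −0.19. With mitochondrial scaling they were Atf5 −0.74, Ppp1r15a −0.58, Sesn2 −0.61, Eif4ebp1 −0.72, Phgdh −0.39, Psat1 −0.50, Psph −0.32, Shmt2 −0.56, Mthfd2 −0.36, Asns −0.24, Aldh18a1 −0.62, Cth −0.72 and Slc7a5 −0.71, and with upper-quartile factors Slc3a2 0.023. Against the control line they were, with total counts, Atf5 −0.18, Sesn2 −0.18, Psat1 −0.006, Shmt2 −0.092, Aldh18a1 −0.18 and Slc7a5 −0.24. With mitochondrial scaling they were Atf5 −0.64, Ppp1r15a −0.62, Ddit4 −0.66, Sesn2 −0.64, Phgdh −0.38, Psat1 −0.46, Psph −0.33, Shmt2 −0.55, Mthfd2 −0.41, Asns −0.23, Aldh18a1 −0.64 and Slc7a5 −0.70. The scalings moved the median of all genes, as the report gives; the cause was not tested. Same-numbered libraries showed no large shared deviation (correlation of deviations between −0.04 and 0.09 over 45 pairs). Such low values cannot exclude that same-numbered libraries were handled together, and the main fit used no pairing. With the replicate block the counts were 23 down for the repressor, 9 up and 13 down for the activator, 14 up for the uninduced repressor line, 9 down for the uninduced activator line and 20 down for the induced repressor line against the induced control. Depth limits Slc7a3, Slc7a11 and the untested Fgf21, Gdf15 and Stc2.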
